A study of Mus musculus with 10 samples.

Results

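The genes described here are 39 mouse genes of DNA replication and S phase, measured by RNA sequencing in whole lung. They were given by symbol and matched by Ensembl identifier in the GRCm38 annotation. Each of the 39 symbols matched 1 identifier among the 53465 genes listed, and all 39 passed the filter on low counts that left 15695 genes for testing. The lungs came from BALB/c mice, 5 untreated controls and 5 challenged through the nose with IL-33, a cytokine released by damaged epithelium. Challenged mice received 1 µg in 35 µL once a day for 5 days, and lungs were collected 24 hours after the final dose. The sources used here give no sex, no age, no vehicle and no statement that each library stands for 1 animal. An effect of the instillation therefore cannot be told apart from that of IL-33, and p-values measure the spread between these libraries. Whole lung mixes many cell types, so more cells in S phase and more RNA per cell cannot be told apart.

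Before S phase, the origin recognition complex, Cdc6 and Cdt1 load the Mcm2-7 ring onto DNA. Cdc45 and the Gins complex then join the ring to make the active helicase. Polymerase alpha with primase starts each strand, polymerases epsilon and delta extend it on the sliding clamp Pcna, and Fen1 and Lig1 join the lagging-strand pieces. Ribonucleotide reductase, thymidylate synthase and thymidine kinase supply deoxynucleotides, while Chaf1, Uhrf1 and Dnmt1 restore nucleosomes and DNA methylation behind the fork. Many of these genes are classic targets of E2F transcription factors, which are held back by the retinoblastoma protein family in resting cells. In adult lung most cells rest, and cycling is low at baseline.

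Counted reads ranged from 7805175 to 13767118 per library. Levels are given in CPM, read counts scaled to library size with edgeR's TMM factors, and fold changes are log2 values of IL-33 over control from edgeR's quasi-likelihood fit, with the SE over libraries. Defining lung markers were abundant, with 4 alveolar type 2 genes summing to 15525 to 18582 CPM in controls and 14432 to 17283 CPM in IL-33 lungs, where Sftpb and Lamp3 fell, Sftpa1 rose and Sftpc was not called. Markers of alveolar type 1 cells (4 of 4), club cells (2 of 2) and endothelium (3 of 4) fell, and their sums did not overlap: 2683 to 3113 against 1593 to 1917 CPM, 18450 to 20521 against 11233 to 13122 CPM and 3163 to 3633 against 1501 to 1954 CPM. The 4 pan-leukocyte genes Ptprc, Cd53, Coro1a and Laptm5 all rose, from a summed 397 to 683 CPM to 1456 to 1799 CPM. The 5 B and plasma cell markers rose from a summed 43.4 to 189.8 CPM to 306 to 850.4 CPM, and no marker of either list was at 0 in every library. Of 6 T cell markers 4 rose and 1 fell. Macrophage markers split, with 2 of 4 higher and 2 lower, and eosinophil markers had 3 of 4 higher and 1 lower. Over all genes tested 35.1% were called higher and 34.8% lower. The part of any of these cell types in the changes below was not tested.

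All 39 replication genes were higher in IL-33 lungs at an adjusted p of 0.05, where 35.1% of the 15695 genes tested were called higher and 69.9% were called in either direction. Their median log2 fold change was 1.98, a 3.94-fold rise, against -0.01 over all genes tested. The smallest was 0.27 for the maintenance methyltransferase gene Dnmt1 and the largest 3.58 for Uhrf1, which recruits Dnmt1 to new DNA. By size, 31 genes rose at least 2-fold (14.5% of all genes did), 19 at least 4-fold (5.36%) and 4 at least 8-fold (2.36%). None was lower by edgeR, at an unadjusted p of 0.05 either, by DESeq2 or by limma-voom. For 38 of the 39, every IL-33 library stood above every control library, as did 29.1% of all genes, and Dnmt1 was the exception. For none did every IL-33 library lie below every control, as it did for 27.4% of all genes.

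Together the 39 genes summed, without TMM factors, to 543.7 ± 24.8 CPM in controls and 1581 ± 197 CPM in IL-33 lungs (SD, n = 5 each), a ratio of 2.91. On that scale controls 1 to 5 held 551, 502, 544, 555 and 566, and IL-33 libraries 1 to 5 held 1695, 1833, 1600, 1341 and 1435. The lowest IL-33 library was thus well above the highest control. Among IL-33 libraries, library 2 was the highest of the 5 for 30 of the 39 genes and library 4 the lowest for 30. The same count was not made over all genes, so a shift of whole libraries cannot be told apart. In controls no library was highest for more than 11 genes. Leukocyte marker sums in IL-33 libraries 1 to 5 were 1799, 1770.4, 1642, 1470.0 and 1456 CPM, and B and plasma cell sums were 306, 850.4, 480.5, 426 and 466 CPM. Macrophage sums were 186.8, 241.4, 184.9, 163.2 and 206.8 CPM in the same order. Eosinophil sums were 48.37, 56.53, 45.5, 46.45 and 54.07 CPM, and T cell sums 135.4, 104.8, 117.6, 125.7 and 90.42 CPM. How these sums relate to the 39 genes was not tested. The coefficient of variation of a gene had a median of 11.2% in controls (3.18% to 33.1%) and 16.2% in IL-33 lungs (8.03% to 23%).

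**Figure D1:**
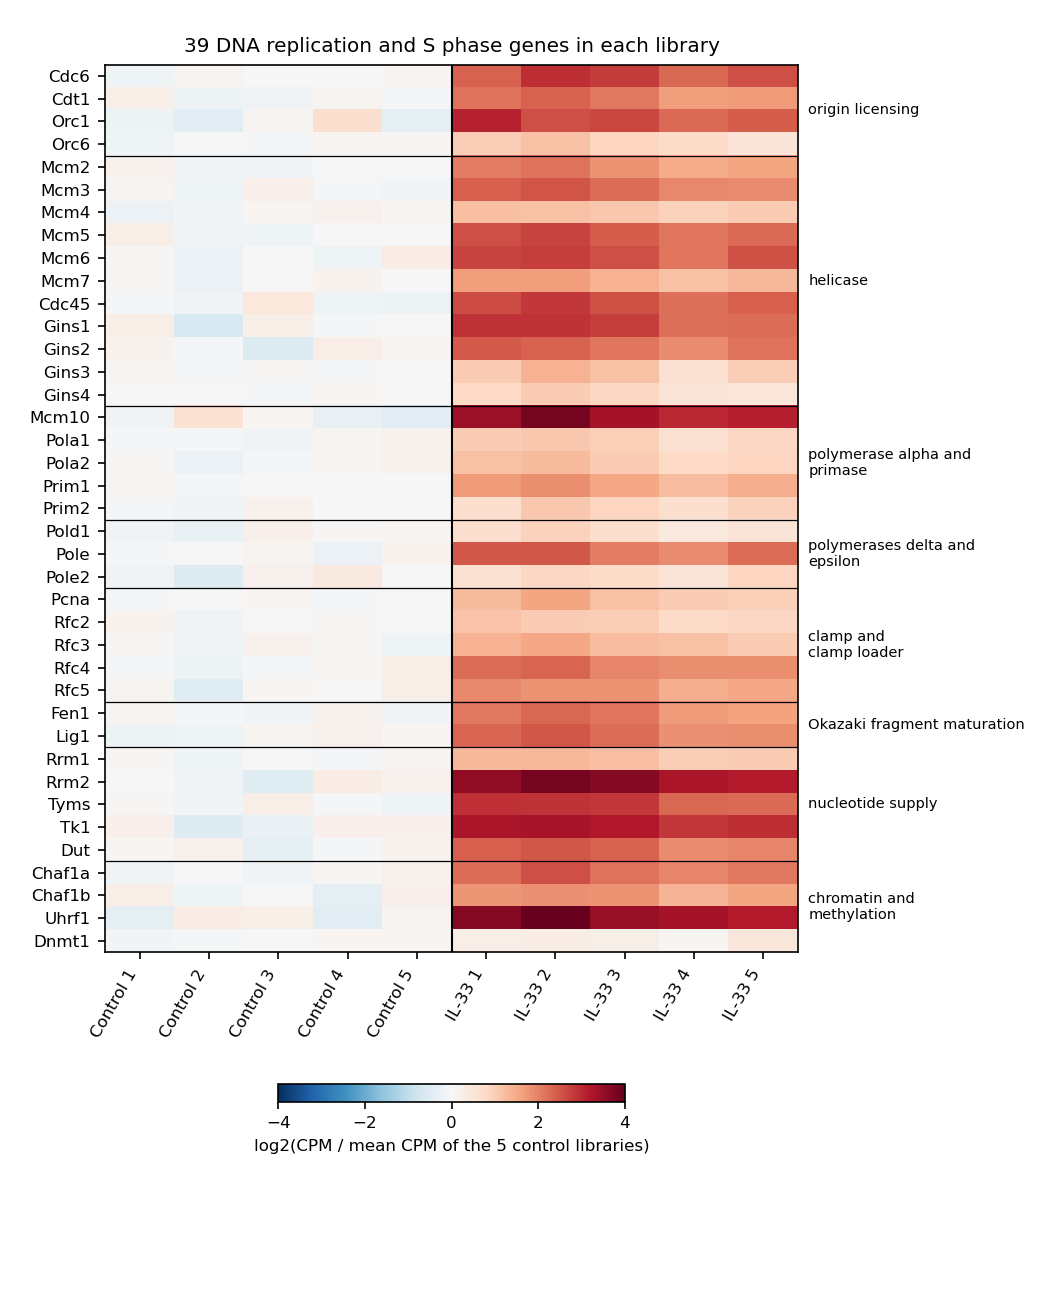
Heat map of the 39 genes (rows, grouped by role) in the 10 libraries (columns). Colour gives log2 of the CPM over the mean CPM of the 5 control libraries. The controls lie near 0, the IL-33 libraries are raised throughout, most in Uhrf1, Rrm2, Mcm10 and Tk1 and least in Dnmt1, and library 2 is the highest of its group for 30 genes.

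Promoter sequence did not enter the choice of these genes. RefSeq windows of GRCm38.p6 running from 250 bases before to 50 bases after a start were held for 32 of the 39 genes, 39 windows in all. The E2F letters TTTGGCGC, TTTCGCGC, TTTGCCGC or TTTCCCGC, searched on both strands, were found in 15 of these 39 windows (38.5%), in 2.26% of all 32851 windows and in 3.64% of the 14735 windows of tested genes. The CCAAT letters were in 56.4% of the windows against 37.4% of all, and TTTGAA, the CHR element of mitotic genes, in 12.8% against 17.9% of all and 12.5% of those of tested genes. Matches of the E2F letters can overlap each other. The stretches below were chosen because their matches lie before the RefSeq start of their window and outside annotated exons, and they come from genes of the helicase, licensing, priming and methylation steps. They are written 5′ to 3′ on the gene's strand, and capitals mark the E2F letters.
Mcm5, chr8:75109336-75109387, plus strand: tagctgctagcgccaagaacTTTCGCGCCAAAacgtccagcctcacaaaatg
Mcm6, chr1:128359725-128359835, minus strand: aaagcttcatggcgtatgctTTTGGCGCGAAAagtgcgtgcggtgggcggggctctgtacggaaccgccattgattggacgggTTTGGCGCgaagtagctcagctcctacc
Cdc6, chr11:98907993-98908040, plus strand: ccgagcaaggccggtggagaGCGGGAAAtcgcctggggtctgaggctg
Pola1, chrX:93632266-93632313, minus strand: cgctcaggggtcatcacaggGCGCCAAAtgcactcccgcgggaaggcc
Uhrf1, chr17:56304108-56304155, plus strand: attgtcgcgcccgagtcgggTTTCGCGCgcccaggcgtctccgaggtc

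Mcm5 and Mcm6 each carry matches on both strands that overlap, and Mcm6 holds 3 matches in all. The Uhrf1 stretch lies before the more downstream of its 2 listed starts, and the Cdc6 stretch lies after the outermost GENCODE start of that gene, at 98907801. The median log2 fold change was 2.01 over the 15 genes with a match, from 0.27 for Dnmt1 to 3.58 for Uhrf1, and 1.98 over the 17 without, from 0.87 for Orc6 to 3.49 for Rrm2. A match is a description of letters, and 7 genes had no window to search.

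Of the licensing genes, Cdc6, the ATPase that helps load the Mcm ring, stood at 1.84, 2.19, 2.03, 2.02 and 2.19 CPM in controls 1 to 5. In IL-33 libraries 1 to 5 it stood at 10.6, 15.8, 14.2, 9.99 and 12.4 CPM. The groups did not overlap, and the log2 fold change was 2.61 ± 0.13 (adjusted p = 3.06e-08). Orc1, the cell cycle-regulated ATPase subunit of the origin recognition complex, had the lowest CPM of the 39 in controls, not corrected for length, at 0.637, 0.548, 0.790, 1.14 and 0.571 CPM in controls and 6.23, 4.38, 4.68, 3.51 and 3.95 CPM after IL-33. Its 40 control reads in all limit the precision of its log2 fold change of 2.59 ± 0.22. Cdt1, the loading factor that is destroyed once S phase starts, rose from 7.39 ± 0.950 to 30.2 ± 6.27 CPM (SD). Orc6, a further subunit of the complex, rose least of the 4, from 15.9 ± 1.11 to 29.1 ± 4.90 CPM, with a log2 fold change of 0.87 ± 0.12. After removal of each library's trend on transcript length and GC content the Orc6 value was 0.57.

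Within the origin recognition complex the subunits moved unequally. The remaining core subunit genes Orc2, Orc3, Orc4 and Orc5, which lie outside the 39, were not called, at log2 fold changes of -0.07, -0.13, -0.08 and 0.19. The ratio of Orc1 to Orc2 reads within a library was 6.27 times higher in IL-33 lungs, a log2 difference of 2.65 ± 0.21 (SE), and did not overlap between groups. The exact two-sided permutation test gave p = 0.00794, the smallest that 5 against 5 libraries allow, and 0.0115 after adjustment over the 16 ratios tested. Orc1 also gained on Orc6, by 1.71 ± 0.22, with the same p-values by that exact test. Cdc6 gained on Cdt1 by a log2 difference of 0.56 ± 0.17 (exact adjusted p = 0.0195). Gmnn, which encodes geminin, the inhibitor of Cdt1, rose from 6.85 ± 1.16 to 26.1 ± 3.61 CPM. The log2 ratio of Cdt1 to Gmnn was 0.12 ± 0.26 in controls and 0.20 ± 0.15 in IL-33 lungs (SD), and the difference of 0.08 ± 0.13 did not pass (exact p = 0.532). With the length and GC trend taken out it was 0.65 ± 0.17 and passed (exact adjusted p = 0.0254).

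All 11 helicase genes rose, with a median log2 fold change of 2.18. Mcm6, a ring subunit, had 14.5, 11.9, 14.3, 12.6 and 17.3 CPM in controls and 91.8, 96.3, 84.5, 62.0 and 82.9 CPM in IL-33 libraries. This was the largest rise of the ring, a log2 fold change of 2.56 ± 0.14 (adjusted p = 6.57e-09). Mcm4, another ring subunit, had 29.4, 32.2, 36.8, 39.03 and 36.4 CPM in controls and 79.8, 79.1, 73.2, 66.2 and 69.6 CPM after IL-33. Its rise of 1.08 ± 0.09 on the log2 scale was the smallest of the ring, and it was the most abundant ring gene of the controls. Mcm5 rose by 2.43 ± 0.12, Mcm3 by 2.21 ± 0.14, Mcm2 by 1.83 ± 0.14 and Mcm7 by 1.45 ± 0.12, and every IL-33 library lay above every control for each of them. Stretches of 75 bases shared with other genes make up 9.49% of Mcm7, which leaves its level uncertain.

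Cdc45, which bridges the ring and the Gins complex, stood at 3.26 ± 0.651 CPM in controls and 18.8 ± 3.003 CPM after IL-33 (SD), and its log2 fold change was 2.53 ± 0.15. The 4 Gins genes encode a tetramer in equal parts but rose by unlike amounts, Gins1 by 2.60 ± 0.21, Gins2 by 2.18 ± 0.16, Gins3 by 1.04 ± 0.13 and Gins4 by 0.74 ± 0.10 on the log2 scale. After removal of the length and GC trend Gins1 had 2.02 and Gins2 2.29, so their order turned. Gins3 lost ground to Gins2 within libraries, by a log2 ratio difference of -1.17 ± 0.18 (exact adjusted p = 0.0115). Gins4 had 18.4, 17.9, 17.7, 19.1 and 17.9 CPM in controls, the lowest relative spread of the 39 genes, and 31.5, 37.1, 32.1, 26.1 and 25.6 CPM after IL-33. It is short, with 1349 exonic bases, and after removal of the length and GC trend its log2 fold change was 0.15 and no longer called (adjusted p = 0.131). On the opposite strand of Gins2, exons of Gse1 cover 2758 of its 4097 exonic bases, and the sources used here do not state how strand entered the counting.

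Levels of different genes can be compared only per length, as CPM per kilobase of exonic sequence. On that scale the ring genes ran in controls from 2.51 ± 0.216 for Mcm2 to 9.69 ± 1.08 for Mcm4. Mcm6 at 3.03 ± 0.445 and Mcm5 at 3.13 ± 0.361 were not apart beyond their spread between libraries. In IL-33 lungs they ran from 8.99 ± 1.86 for Mcm2 to 26.6 ± 4.94 for Mcm3, with Mcm4 at 20.5 ± 1.65, Mcm6 at 17.9 ± 2.83, Mcm5 at 16.99 ± 2.62 and Mcm7 at 16.3 ± 2.53. The last 3 did not differ beyond their spread between libraries, and their differences within libraries were not tested. Within a library, the highest ring gene was 3.9 ± 0.628 times the lowest in controls and 2.98 ± 0.152 times in IL-33 lungs. The groups overlapped, at 2.87 to 4.45 and 2.83 to 3.15. With the longest transcript as the length the mean ratios were 3.12 and 1.64, and the groups, at 2.69 to 3.75 and 1.55 to 1.73, did not overlap. By that length the lowest ring gene of the controls was Mcm6, at 3.25 against 4.99 for Mcm2. For the 4 Gins genes the ratio went from 31.5 ± 6.81 to 11.1 ± 1.35, with Gins4 the highest and Gins2 the lowest in both groups.

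**Figure D2:**
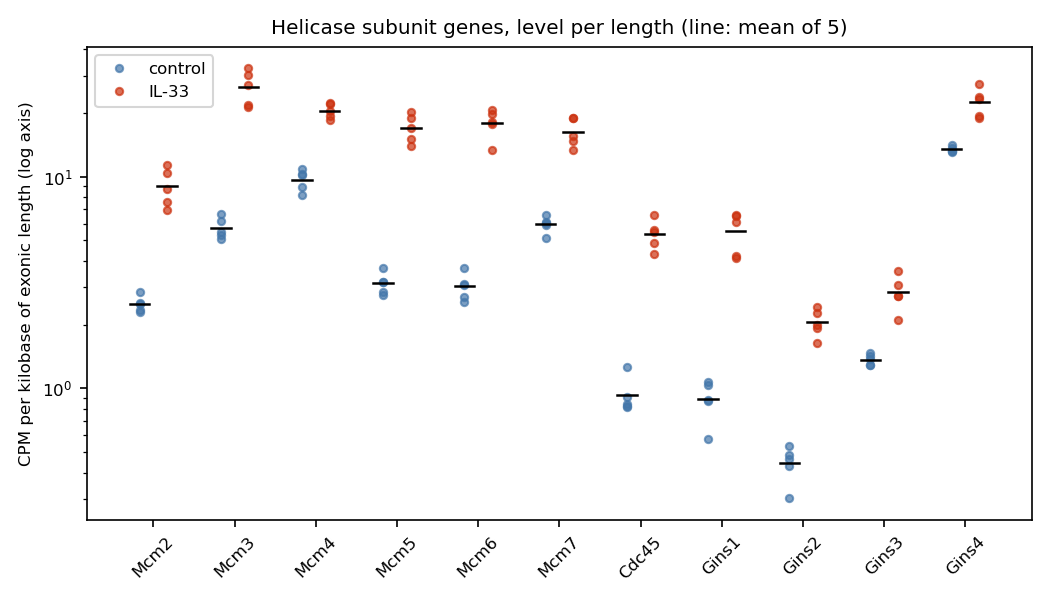
Level per length of the 11 helicase genes, in CPM per kilobase of exonic length on a log axis. Points are libraries (control left, IL-33 right of each gene) and lines are means of 5. Mcm2-7 run from 2.51 to 9.69 in controls and from 8.99 to 26.6 after IL-33, while Gins4 lies far above Gins1, Gins2 and Gins3 in controls.

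Mcm10, an initiation factor that binds the helicase and polymerase alpha, had 1.06, 1.75, 1.24, 0.965 and 0.856 CPM in controls and 12.6, 16.6, 11.8, 9.53 and 10.1 CPM after IL-33. The groups stood far apart, with a log2 fold change of 3.37 ± 0.22 (adjusted p = 4.56e-08). Relative to the ring gene Mcm2, Mcm10 gained by a log2 ratio difference of 1.51 ± 0.21 (exact adjusted p = 0.0115). The polymerase alpha and primase genes themselves rose less, Prim1, the catalytic primase, by 1.57 ± 0.11, Pola2 by 1.03 ± 0.11, Pola1, the catalytic polymerase, by 0.89 ± 0.10 and Prim2, the large primase subunit, by 0.84 ± 0.09. Prim2 fell behind Prim1 within libraries, by a log2 ratio difference of -0.73 ± 0.10 with exact adjusted p = 0.0115. Pola2 against Pola1 differed by only 0.14 ± 0.06, which did not pass after adjustment (exact p = 0.0476, adjusted p = 0.0508).

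Pole, the leading-strand polymerase, had 4.04, 4.39, 4.63, 3.68 and 4.75 CPM in controls and 23.9, 24.2, 17.8, 16.1 and 20.1 CPM after IL-33. No library of either group came near the other, and the log2 fold change was 2.25 ± 0.13 (adjusted p = 3.59e-08). Its partner Pole2, the second subunit, had 2.97, 2.30, 3.72, 4.21 and 3.33 CPM in controls and 5.05, 5.87, 5.46, 4.76 and 5.96 CPM after IL-33, a log2 fold change of 0.71 ± 0.16. These groups were close but did not overlap, and 6.1% of Pole2's stretches of 75 bases are shared with other genes. The ratio of Pole2 to Pole fell to 0.355 of its control value, from a log2 ratio of -0.40 ± 0.40 to -1.89 ± 0.23 (SD, exact adjusted p = 0.0115). Pold1, the catalytic subunit of the lagging-strand polymerase, rose from 24.7 ± 3.11 to 38.9 ± 5.48 CPM, by 0.65 ± 0.12 on the log2 scale, and by 1.01 after removal of the length and GC trend. Pole gained on Pold1 by a log2 ratio difference of 1.57 ± 0.12 (exact adjusted p = 0.0115). Against a null of a 1.5-fold change, Pole2, Pold1, Gins4 and Dnmt1 no longer passed and the other 35 genes did, as did 17.9% of all genes in the higher direction.

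Pcna, the sliding clamp, was the most abundant of the 39 genes per length. Its controls had 45.8, 47.6, 50.7, 46.4 and 47.8 CPM and its IL-33 libraries 115, 142, 108, 96.0 and 91.7 CPM. The controls lay within a few CPM of each other, and the log2 fold change was 1.21 ± 0.11 (adjusted p = 5.01e-07). Processed copies of Pcna exist, and 13.8% of its stretches of 75 bases are shared, most often with Pcna-ps2, which leaves its level uncertain. The clamp loader genes rose by 2.05 ± 0.13 for Rfc4, 1.70 ± 0.15 for Rfc5, 1.28 ± 0.11 for Rfc3 and 0.95 ± 0.09 for Rfc2 on the log2 scale. The order of the first 2 turned after removal of the length and GC trend, with Rfc4 at 1.46 and Rfc5 at 1.85. Rfc1, the large loader subunit outside the 39, was not called, at 61.4 ± 4.19 CPM in controls and 62.7 ± 3.93 CPM after IL-33. Pcna fell behind Rfc4 within libraries by a log2 ratio difference of -0.84 ± 0.09 (exact adjusted p = 0.0115).

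Of the genes that finish lagging-strand pieces, Lig1, the replicative DNA ligase, had 14.9, 15.2, 18.3, 19.1 and 17.5 CPM in controls and 85.9, 95.1, 80.0, 60.6 and 62.3 CPM after IL-33, a log2 fold change of 2.17 ± 0.15. The flap endonuclease gene Fen1 stood at 9.86 ± 0.838 CPM in controls and 39.2 ± 7.91 CPM after IL-33, and its log2 fold change was 1.98 ± 0.14. For both, IL-33 libraries 1 to 3 were above libraries 4 and 5. Opposite-strand exons of Tmem258 and Gm10143 cover 2039 of Fen1's 2422 exonic bases.

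**Figure D3:**
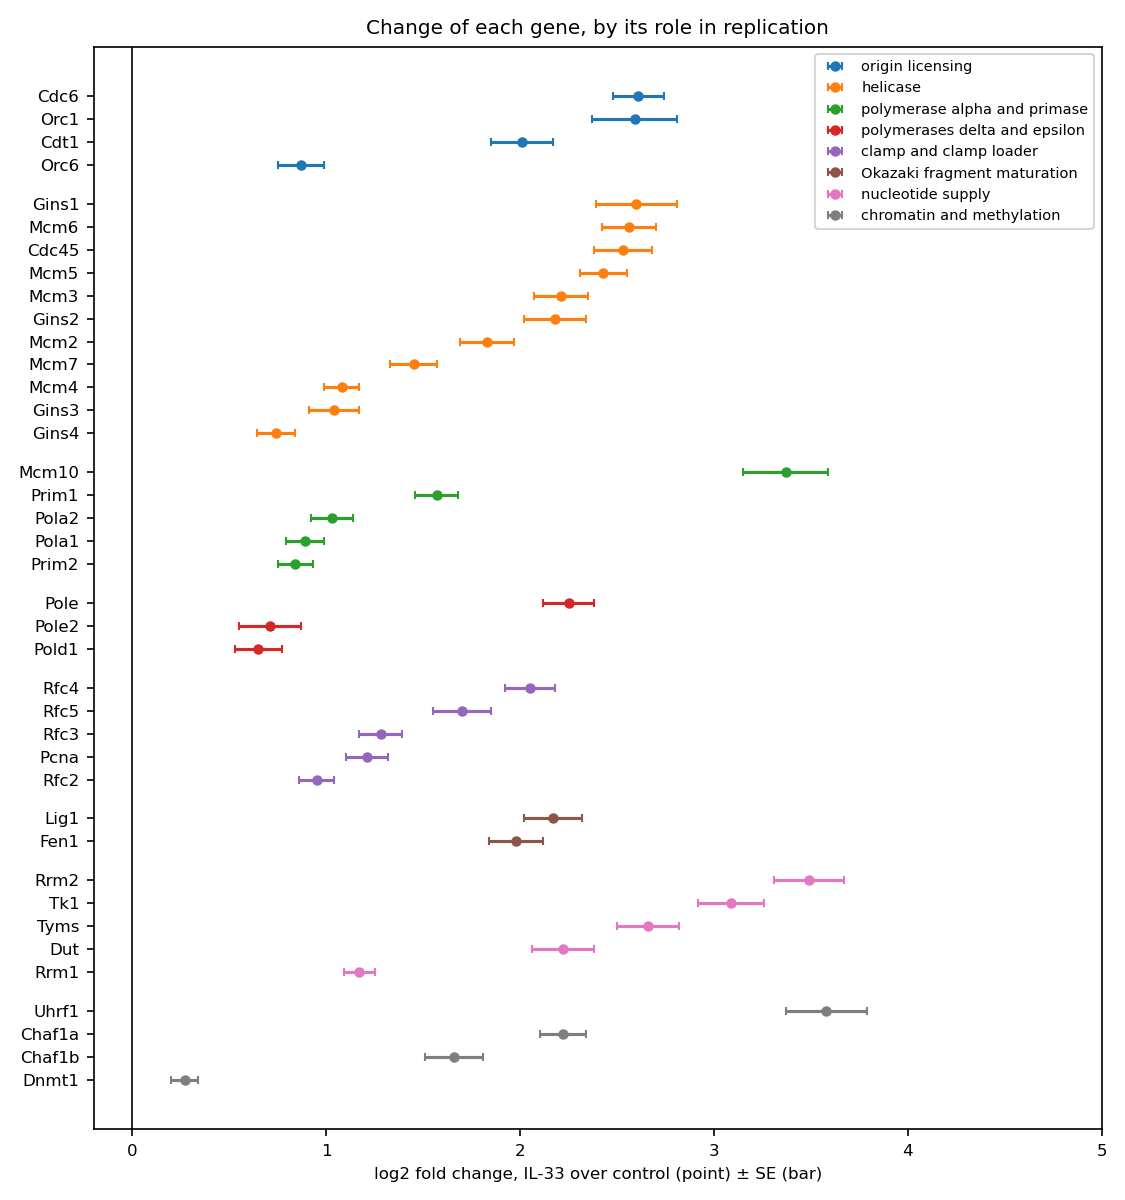
Log2 fold change of IL-33 over control (point) with its SE (bar) for each of the 39 genes, grouped and coloured by role. Every point lies above 0, and genes of 1 role differ in size, from 0.65 to 2.25 among polymerases delta and epsilon and from 0.27 to 3.58 among chromatin and methylation genes.

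All 5 nucleotide supply genes rose, with a median log2 fold change of 2.66. Rrm2, the small subunit of ribonucleotide reductase that is made in S phase (ENSMUSG00000020649, chromosome 12, 24708241 to 24714146), had 5.81, 5.48, 4.18, 7.28 and 6.66 CPM in controls. After IL-33 it had 69.2, 83.0, 73.8, 56.0 and 52.6 CPM, a log2 fold change of 3.49 ± 0.18 (adjusted p = 3.37e-09). Rrm1, the large subunit, had 38.6, 33.1, 37.6, 36.3 and 40.1 CPM in controls and 90.5, 93.1, 86.5, 72.8 and 75.6 CPM after IL-33, a log2 fold change of 1.17 ± 0.08. The 2 subunits thus came closer in read number: the Rrm2 to Rrm1 ratio was 5.04 times its control value, a log2 difference of 2.33 ± 0.15 (exact adjusted p = 0.0115). With the length and GC trend taken out of the ratio the difference was 1.76 ± 0.17 (exact adjusted p = 0.00977). Rrm2b, the small subunit of non-dividing cells, moved the other way, from 54.4 ± 2.28 to 19.2 ± 3.68 CPM (log2 fold change -1.49 ± 0.14, adjusted p = 1.75e-07). Per kilobase of exonic length, Rrm2b stood at 5.6 to 6.26 CPM in controls, above the 1.51 to 2.63 of Rrm2, and at 1.45 to 2.55 CPM after IL-33, below the 19 to 30 of Rrm2. Their log2 ratio, Rrm2 over Rrm2b, went from -3.22 ± 0.24 to 1.80 ± 0.55 (SD), a difference of 5.02 ± 0.27 with exact adjusted p = 0.0115. That p-value restates the rise of Rrm2 and the fall of Rrm2b.

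Tk1, the cytosolic thymidine kinase of S phase, had 3.61, 2.19, 2.60, 3.60 and 3.61 CPM in controls and 30.1, 30.5, 28.9, 22.0 and 24.0 CPM after IL-33, a log2 fold change of 3.09 ± 0.17. Tyms, thymidylate synthase, rose by 2.66 ± 0.16 and Dut, which breaks down dUTP, by 2.22 ± 0.16. Tk1 gained on Tyms by 0.47 ± 0.19 in log2 ratio (exact adjusted p = 0.0272). That call was lost without any single IL-33 library, with adjusted p of 0.0508 to 0.0816 in the exact test. The mitochondrial kinase Tk2, outside the 39, was not called (log2 fold change 0.12).

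**Figure D4:**
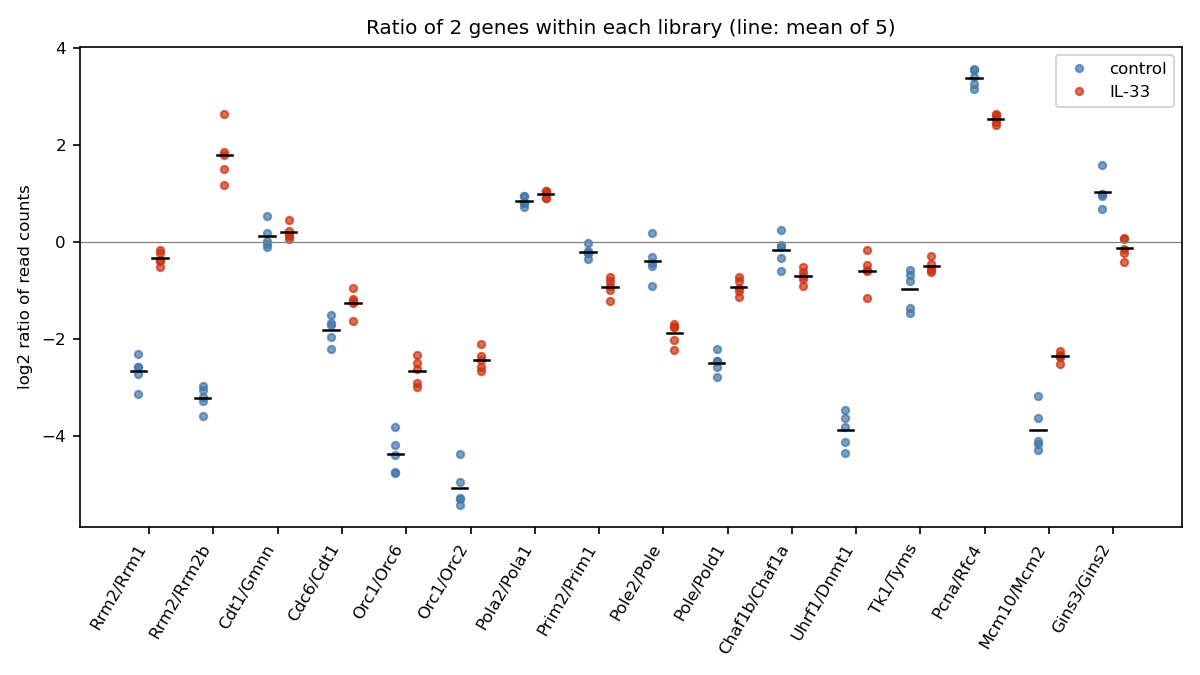
Log2 ratio of the read counts of 2 genes within each library, for the 16 pairs tested. Points are libraries (control left, IL-33 right of each pair) and lines are means of 5. Rrm2/Rrm2b goes from -3.22 to 1.80 and Uhrf1/Dnmt1 from -3.88 to -0.60, while Cdt1/Gmnn and Pola2/Pola1 change by 0.08 (0.65 with the length and GC trend taken out) and 0.14.

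Behind the fork, Uhrf1, which reads half-methylated DNA (ENSMUSG00000001228, chromosome 17, 56303321 to 56323486), had 3.75, 6.03, 5.76, 3.60 and 5.33 CPM in controls. IL-33 libraries had 61.8, 77.8, 55.1, 49.5 and 43.6 CPM. This was the largest rise of all 39 genes, a log2 fold change of 3.58 ± 0.21 (adjusted p = 8.36e-09), and 9.05% of its stretches of 75 bases are shared with other genes. Dnmt1, the methyltransferase it recruits, was the most abundant of the 39 by CPM in controls, with 66.1, 67.8, 71.8, 74.9 and 75.8 CPM. After IL-33 it had 86.1, 86.7, 84.1, 74.5 and 97.5 CPM, so library 4 lay within the control range. Its log2 fold change was 0.27 ± 0.07 (adjusted p = 0.00608), and 0.62 after removal of the length and GC trend. The log2 ratio of Uhrf1 to Dnmt1 differed by 3.29 ± 0.23 between groups (exact adjusted p = 0.0115).

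The chromatin assembly genes Chaf1a and Chaf1b rose by 2.22 ± 0.12 and 1.66 ± 0.15 on the log2 scale. Chaf1b fell behind Chaf1a by a log2 ratio difference of -0.53 ± 0.16 (exact adjusted p = 0.0195), or -0.81 ± 0.14 with the length and GC trend taken out (exact adjusted p = 0.00977). Exons of Ubxn6 on the opposite strand cover 4648 of Chaf1a's 8854 exonic bases. In all, 14 of the 16 ratios passed an adjusted p of 0.05 in the exact test, and 15 with that trend taken out. How often other pairs of genes would pass was not tested, and 69.9% of all single genes tested were called. The genes of the pairs come from lists chosen with earlier results of these data known. Where the genes of a pair had unlike fold changes, the p-value of the ratio restates that and is no separate evidence.

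Position offered a further comparison. A gene in the files starts on the opposite strand within 1000 bases of the start of 14 of the 39 genes (35.9%), as it does for 23.8% of 14159 tested protein-coding genes. For 9 of the 14 this neighbour is protein-coding, and the remaining 5 neighbours are not. Mcm4 and Prkdc, the catalytic subunit of DNA-dependent protein kinase, start 466 bases apart. Prkdc stood at 22.1 ± 1.86 CPM in controls and 21.3 ± 1.90 CPM after IL-33 and was not called. Orc1 and the splicing factor gene Prpf38a start 87 bases apart, and Prpf38a rose by 0.42 ± 0.05 against 2.59 for Orc1 on the log2 scale. Orc6 and Vps35, of the retromer, start 170 bases apart, and Vps35 fell by 0.63 while Orc6 rose. Of the 9 protein-coding neighbours, 6 were not called (Ufd1, Abhd12, Prkdc, Ap4m1, Pxmp2 and Afmid), 2 rose (Tmem258 and Prpf38a) and 1 fell (Vps35), where 35.1% of all genes tested were called higher and 34.8% lower. In each of the 9 pairs the replication gene gained on its neighbour, by log2 ratio differences of 1.01 ± 0.07 for Fen1 over Tmem258 to 2.91 ± 0.24 for Tk1 over Afmid. Each had an exact two-sided permutation p of 0.00794, the smallest possible here, also after adjustment over the 9. These tests were chosen after the values were seen. The replication genes were already known to be higher, so the p-values restate that rise and say nothing further about position. Where the arrangement overlaps, as for Cdc45, Fen1, Mcm7, Orc6 and Tk1, reads of the shared exons depend on the strand setting of the counting.

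**Figure D5:**
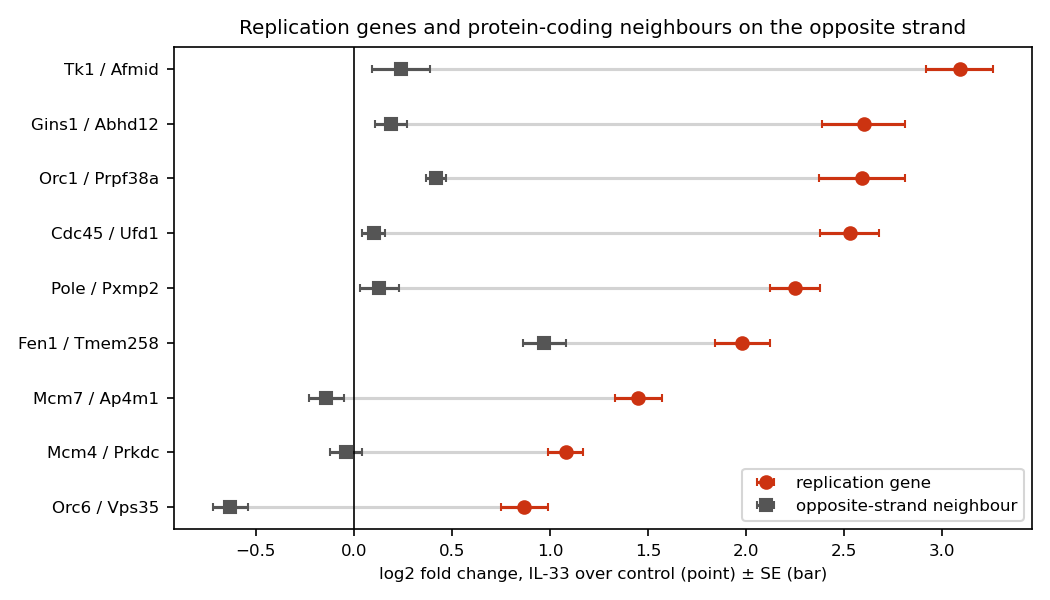
Log2 fold change of IL-33 over control (point) with its SE (bar) for 9 replication genes (circles) and the protein-coding gene that starts on the opposite strand within 1000 bases (squares). The replication gene lies to the right of its neighbour in every pair, from 0.87 against -0.63 for Orc6 and Vps35 to 3.09 against 0.24 for Tk1 and Afmid.

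Of 35 further replication genes outside the 39, 28 rose and none fell at an adjusted p of 0.05, with a median log2 fold change of 1.05. None fell by edgeR's unadjusted p, DESeq2 or limma-voom either. Over all genes tested 35.1% were called higher and 34.8% lower. Top2a, the topoisomerase of dividing cells, went from 17.1 ± 2.15 to 211 ± 35.2 CPM and Ticrr, which helps Cdc45 load, from 0.733 ± 0.268 to 7.96 ± 2.27 CPM. Top1, the most abundant of them by CPM, rose by 0.49 ± 0.09 on the log2 scale. The 7 genes not called were Orc2, Orc3, Orc4, Orc5, Mcmbp, Mcm9 and Rfc1. Without IL-33 library 5, 1 gene of this list was lower. Clspn, the fork mediator claspin, rose by 3.28 ± 0.15 and the single-strand binding genes Rpa1, Rpa2 and Rpa3 by 0.83, 1.59 and 1.05; these 4 were picked after their values were seen.

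Regulators of S phase entry moved in both directions, 24 of 34 higher and 6 lower, with a median log2 fold change of 0.57. The shares over all genes tested were 35.1% higher and 34.8% lower. Ccna2, cyclin A2, went from 6.82 ± 1.10 to 79.6 ± 17.2 CPM and Ccne1, cyclin E1, from 1.17 ± 0.213 to 8.44 ± 1.95 CPM. The cyclin-dependent kinase inhibitor gene Cdkn2b fell by 0.98 and Tfdp2, an E2F partner, by 0.77 on the log2 scale. Cyclin D2, Ccnd2, the most abundant by CPM, had -0.06 and was not called. After removal of the length and GC trend Ccnd2 stood at 0.27, on the other side of 0 (adjusted p = 0.0535), and with the replicate block added it was called higher, at 0.26 (edgeR adjusted p = 0.02). Chosen after their values were seen, the activator E2f1 rose by 1.57 ± 0.12 and the late repressors E2f7 and E2f8 by 1.89 ± 0.12 and 2.44 ± 0.17, while E2f6 fell by 0.58, Ccnd1 by 0.49 and Cdkn1c by 0.59. The other cyclin-dependent kinase inhibitor genes did not move alike. Cdkn2a, with 22 control reads, rose by 2.53, Cdkn2d by 1.30 and Cdkn2c by 0.58. Cdkn1b fell by 0.27 and Cdkn1a was not called. Against a null of a 1.5-fold change, 14 of the 34 regulators were higher and 1 lower, where 17.9% of all genes tested were higher.

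Nucleotide supply genes outside the 39 were called higher in 12 and lower in 3 of 20 tested, with a median log2 fold change of 0.45, and Nme2 did not pass the filter. Over all genes tested 35.1% were called higher and 34.8% lower. Nme1, a nucleoside diphosphate kinase, rose by 2.25 ± 0.23 on the log2 scale. Rrm2b fell as given above and Impdh1, of guanine nucleotide synthesis, by 0.39. Samhd1, which breaks down deoxynucleotides, was the most abundant by CPM, at 312 ± 37.6 CPM in controls and 441.6 ± 19.6 CPM after IL-33. Purine and pyrimidine synthesis genes were mixed. Cad, Paics, Gart and Ppat were not called, at log2 fold changes of 0.11, 0.13, 0.04 and 0.02. Atic rose by 0.89, Impdh2 by 0.59, Umps by 0.40 and Ctps by 0.36, while Impdh1 fell as given above. Apart from Impdh1, these genes were named after their values were seen.

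Of 17 further genes of replication-coupled chromatin, 15 rose and none fell, with a median log2 fold change of 0.64. None fell by edgeR's unadjusted p, DESeq2 or limma-voom. Among all genes tested 35.1% were called higher and 34.8% lower. Asf1b, a histone chaperone, rose from 2.61 ± 0.420 to 26.6 ± 5.78 CPM and Hells, a remodeller that aids DNA methylation, from 6.21 ± 0.517 to 36.8 ± 6.75 CPM. Asf1a, the paralogue of Asf1b, had 0.23 on the log2 scale and Rbbp4, the most abundant of the list by CPM, 0.62, both called. Of the de novo methyltransferase genes, Dnmt3a had 0.29 (called) and Dnmt3b 0.31 (not called). Against a null of a 1.5-fold change 8 of the list were higher, as were 17.9% of all genes tested.

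For comparison with the next stage of the cycle, all 20 mitosis genes rose, with a median log2 fold change of 3.36, above the 1.98 of the 39 replication genes. Of all genes tested, 35.1% were called higher. At least 8-fold rises were seen in 14 of the 20 mitosis genes, in 4 of the 39 and in 2.36% of all genes tested. Birc5, survivin, rose by 4.69 ± 0.31 and Ube2c, which drives exit from mitosis, by 4.08 ± 0.18. Mki67, the most abundant by CPM, rose by 3.66 ± 0.14. The smallest rise was that of Foxm1, a mitotic transcription factor, by 1.95 ± 0.11. The difference between the lists was not tested.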

How the data were processed

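RNA of 10 lung samples was polyA-selected and made into stranded libraries, per the labels' protocols. The submitters' processing notes name FastQC 0.11.6, MultiQC 1.6, STAR 2.5.4b, HTSeq 0.9.1 and GRCm38. The deposited files hold raw counts of reads per gene, with no normalization. Annotation release and strand setting: not given in the sources used here. Entries that name no gene stayed out of library sizes: reads in no gene (10.4% to 11.1% of all records in controls, 11.4% to 13.7% in IL-33 libraries), ambiguous reads (0.862% to 0.945%) and reads with several alignments (15% to 16.2% in controls, 19.97% to 22.8% in IL-33 libraries). The first and last kind did not overlap between groups, and their part in the results was not tested.

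Groups were compared by edgeR 4.0.16 under R 4.3.3, using TMM factors, the filterByExpr filter, a quasi-likelihood test and Benjamini-Hochberg adjustment over 15695 genes. Each SE was computed on log2(CPM + 0.1) over the 5 libraries of each group. Ratios of 2 genes used log2 of counts with 0.5 added, and a two-sided exact permutation test adjusted over the 16 pairs. Lengths, positions and shared 75-base windows come from GENCODE M21, and promoters from RefSeq. No 2 libraries of a group agreed within sampling noise (chi-square per degree of freedom 5.09 to 27.6). The fit was tested on simulated data.

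Alternatives were DESeq2 1.42.0, limma-voom (limma 3.58.1), other scalings and filters, the replicate number as a block, offsets for length and GC content, a null of a 1.5-fold change, a threshold of 0.01 and leaving out each library. Taking the length and GC trend out of the ratios was added after seeing the data. The 39 genes and the lists, from which the genes of the 16 ratios come, were chosen with earlier results of these data known. All 39 genes are named. Of each other list the rule takes the 2 called genes with the largest change in each direction at a mean of at least 1 CPM. It also takes the most abundant gene by CPM, not corrected for length, beside the genes of the ratios. One gene that the rule takes is not reported here. Other list genes, and neighbours, were named after their values were seen.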

Additional observations from a re-analysis of the deposited data

Results flagged for a closer look

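In control library 3, Cdc45 stood at 4.40 CPM, apart from the other controls, which lay between 2.85 and 3.19 CPM. The gap to the nearest was 0.784 of the whole range, past Dixon's 95% limit of 0.71 for 5 values. It was the only such value among 78 groups of gene levels and 32 groups of ratios, and chance alone gives about 1 in 20. Without that library the log2 fold change of Cdc45 was 2.64 against 2.53.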

How the results depend on the processing

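All 39 genes kept their direction under all 21 alternatives per gene, and 39 stayed called with each library left out (39 to 39), under DESeq2, limma-voom, other scalings and filters. With the replicate block 39 were called. The sources used here do not say that replicate numbers pair the libraries. Deviations of same-numbered libraries correlated at -0.0505 to 0.265 and only number 1 matched itself best. These few correlations cannot exclude a weak pairing, and the block changed no call of the 39. With length and GC offsets 38 were called, where 37.6% of all genes tested were called higher. The median log2 fold change of the 39 was then 1.85, against 1.98 without offsets. With the replicate block added 38 were called as well, and Gins4 was lost both times (0.15). Shorter transcripts were higher across all genes, with medians of 0.72 in the shortest and -0.31 in the longest of 10 length bins, and the cause was not tested. Ccnd2 turned from -0.06 to 0.27 with the offsets and 0.26 with the replicate block added, where it was called (adjusted p = 0.02). The Cdt1/Gmnn difference, 0.08, was 0.65 and called with the trend taken out, a setting added after seeing the data, under which no other ratio changed its call. Against a 1.5-fold change, 35 of the 39 were called, 14 regulators of S phase entry were higher (24 before) and 1 lower (6 before), 1 outside nucleotide gene was lower (3 before) and 8 chromatin genes were higher (15 before), since that test asks for more. Among other replication genes 0 to 1 were lower with a library left out. Tk1/Tyms lay between 0.35 and 0.57 with a library left out and lost its call without any of the 5 IL-33 libraries. With the longest transcript as length, the Mcm2-7 spread was 3.12 in controls and 1.64 after IL-33, against 3.9 and 2.98, since lengths changed. Scarce genes such as Orc1, with 40 control reads, carry the widest error.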

Other observations

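Genes of homologous recombination and the replication checkpoint, a list chosen after the values of the 39 genes were seen, were called higher in 14 and lower in 1 of 19 tested, with a median log2 fold change of 1.82. The shares over all genes tested were 35.1% higher and 34.8% lower. Rad54l, a DNA motor of recombination, went from 1.61 ± 0.369 to 16.03 ± 3.19 CPM. Brca1 rose by 2.75 ± 0.12 and Chek1, the checkpoint kinase, by 2.30 ± 0.21. Atr, the kinase upstream of Chek1, was not called at 0.03, and Hus1, of the checkpoint clamp, fell by 0.43 on the log2 scale.

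Most histone genes of S phase make RNA that ends in a stem-loop and not in a polyA tail, and these libraries were polyA-selected. Of 69 genes of the histone clusters 9 passed the filter on low counts. Hist1h4i rose by 1.97 ± 0.19, Hist1h1c by 1.05 ± 0.23, Hist1h2bc by 0.63 ± 0.12 and Hist1h1d, whose groups overlap, by 1.57 ± 0.58, while Hist1h2al fell by 0.51 (adjusted p = 0.0495) and 4 were not called. In all, 4 of the 9 were called higher and 1 lower, where 35.1% of all genes tested were called higher and 34.8% lower. The median over the 9 was 0.58, and 0.03 after removal of the length and GC trend. Histone genes are near-identical copies, so their levels are uncertain. Slbp, which binds the stem-loop, rose from 20.6 ± 0.607 to 43.0 ± 6.22 CPM.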
